A study of Mus musculus with 12 samples.

Results

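The Itih genes encode the heavy chains of the inter-alpha-trypsin inhibitor family and their relatives. They were followed here in the aortic valve of mice at postnatal day 10. The members were chosen by name, as every gene whose symbol starts with Itih. The count table of 20620 genes held 5 of the 6 Itih genes of the annotation, namely Itih2, Itih3, Itih4, Itih5 and the pseudogene Itih5l-ps, and all 5 passed the filter on low counts. Itih1 was not analysed here. The family was singled out because Itih4 differed between Notch1+/-;Gata5-/- and wildtype valves in these same libraries, so that difference is given below as a description, and nothing is read from any test of it.

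Inter-alpha-trypsin inhibitors are best known as plasma proteins made by the liver. The heavy chains encoded by Itih1, Itih2 and Itih3 are joined through chondroitin sulfate to bikunin, a Kunitz-type protease inhibitor encoded by Ambp. TSG-6, the product of Tnfaip6, moves them onto hyaluronan and so links hyaluronan chains into a cohesive matrix. ITIH4 carries the same vault inter-alpha-trypsin and von Willebrand A domains but no bikunin, and in human plasma it is an acute phase protein that is cut by plasma kallikrein. ITIH5 is made mainly outside the liver. Hyaluronan is a main component of the cushions from which heart valves form, and proteoglycans that bind it remain in the mature leaflet.

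Messenger RNA was sequenced from 12 libraries, each a pool of 3 aortic valves, in 3 groups of 4. The groups were wildtype, Notch1+/-;Gata5+/- and Notch1+/-;Gata5-/-, called double heterozygotes and Gata5 nulls below. Both mutant groups were heterozygous for Notch1, the gene of a membrane receptor through which neighbouring cells signal, and differed in whether 1 or both copies of Gata5 were disrupted. GATA5 is a transcription factor of the endocardium and the developing heart. The sources used here do not give the design of either allele, the sex of the mice or whether pools of different groups shared litters. P-values therefore measure the spread between pools only.

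Total counts were 13866604 to 25059653 per library. Gata5 had 0 counts in all 4 Gata5-null libraries, 18 to 56 in wildtype and 15 to 112 in double heterozygotes. Its mean was 1.77 ± 1.03 CPM in wildtype and 4.09 ± 2.27 CPM in double heterozygotes (SD, n = 4 each), with overlapping libraries, so the loss of a Gata5 copy that the second label gives does not show in these counts. Notch1 averaged 128 CPM in wildtype, 172 CPM in double heterozygotes and 185 CPM in Gata5 nulls. CPM is the count scaled to a common library total by TMM. Because the changed part of Notch1 is not known, these counts do not check its label. Replicate 3 of the Gata5 nulls stood apart with 6000 genes at 0. Wildtype replicate 2 came next with 3208, close to the 1017 to 2908 of the other libraries. The 8 valve interstitial markers summed to 19540 to 26000 CPM in the 12 libraries. The 6 heart muscle markers summed to 22770 to 52040 CPM, so the dissected pieces also held heart muscle RNA. In such pieces, fewer cells of a type and less RNA per cell cannot be told apart.

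The promoters of the 2 most abundant members are shown because Gata5 encodes a GATA-binding factor and Notch1 signals through the DNA-binding protein RBPJ. They are RefSeq sequences of build GRCm38.p6, each running from 250 bases before to 50 bases after the annotated start on the strand of the gene. Capitals mark a match to a GATA motif (AGATAA or TGATAA) or to the RBPJ core TGGGAA, both searched on both strands. Other forms of the GATA motif, such as TGATAG, were not searched and are not marked where they occur.
Itih4 (chr14:30886226-30886525, + strand): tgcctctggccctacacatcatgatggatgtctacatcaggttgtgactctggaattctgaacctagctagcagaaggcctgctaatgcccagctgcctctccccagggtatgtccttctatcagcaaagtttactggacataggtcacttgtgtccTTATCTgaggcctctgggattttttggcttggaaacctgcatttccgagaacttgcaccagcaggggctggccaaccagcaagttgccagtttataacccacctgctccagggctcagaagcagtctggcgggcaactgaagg
Itih5 (chr2:10153293-10153592, + strand): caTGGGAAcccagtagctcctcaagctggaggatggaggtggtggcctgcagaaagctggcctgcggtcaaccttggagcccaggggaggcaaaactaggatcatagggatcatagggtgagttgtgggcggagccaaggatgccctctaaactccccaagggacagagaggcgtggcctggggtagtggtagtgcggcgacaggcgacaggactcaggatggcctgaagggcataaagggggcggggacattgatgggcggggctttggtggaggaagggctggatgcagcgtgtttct

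The Itih4 window held 1 match, an AGATAA read on the opposite strand, at bases -93 to -88 from the start. The Itih5 window held neither of the searched GATA forms and 1 TGGGAA on its own strand, at bases -248 to -243. The Itih2 promoter, on chromosome 2, held TGATAA at -250 to -245 and, on the opposite strand, AGATAA at -244 to -239. The promoters of Itih1, Itih3 and Itih5l-ps held none of the searched forms, and none of the 6 held a CArG box, the motif of serum response factor. Of 32851 RefSeq mouse promoters of the same length, 11.2% held AGATAA, 9.05% TGATAA, 18.6% at least 1 of both GATA forms, 25.6% TGGGAA and 1.63% a CArG box. These are matches of letters in short windows and say nothing about binding.

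Itih4 (ENSMUSG00000021922, chromosome 14) was the member on whose difference the family was chosen. Its levels in wildtype replicates 1 to 4 were 64.2, 74.1, 78.1 and 93.2 CPM. In double heterozygotes they were 40.5, 40.7, 51.2 and 46.3 CPM. In Gata5 nulls they were 26.5, 33.1, 37.0 and 41.0 CPM. All 8 mutant libraries lay below all 4 wildtype libraries, and the lower of both mutant groups on average was that of the Gata5 nulls.

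The group means for Itih4 were 77.4 ± 12.1 CPM in wildtype, 44.7 ± 5.10 in double heterozygotes and 34.4 ± 6.18 in Gata5 nulls (SD, n = 4 each). These rest on 511 to 1862 counts per library. From wildtype to Gata5 nulls the log2 fold change was -1.17 (SE 0.17), a 2.25-fold lower level. This is the contrast that chose the family, and among the 19346 genes tested in it, 0.0258% passed an adjusted p of 0.05 in edgeR and 0.24% of 20458 genes did in DESeq2. Groups did not overlap for 2.93% of all genes. Nothing is read from the place of Itih4 in these shares, since the same libraries chose it. In the authors' deposited table Itih4 has a log2 fold change of -1.14 (SE 0.188) and is 1 of 33 of 13959 genes marked as changed, and Itih2, Itih3 and Itih5 are marked as not significant.

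The double heterozygous group was not part of that contrast, but it was compared with the same 4 wildtype libraries. Its permutation p, rank and lack of overlap for Itih4 are therefore not independent of the choice of Itih4. Its log2 fold change for Itih4 was -0.79 (SE 0.17, 95% interval -1.15 to -0.44), a 1.73-fold lower level. All 4 libraries were below all 4 wildtype libraries, with an exact two-sided permutation p of 0.0286, the smallest that 4 against 4 libraries allow. It was the first of 19346 genes by unadjusted p (0.000121) in edgeR's quasi-likelihood test, but after Benjamini-Hochberg adjustment p was 1 and 0.0% of genes were called. With DESeq2 the log2 fold change was -0.80 with an adjusted p of 0.0489, and 0.0391% of genes were called. Groups did not overlap for 2 of the 5 members in this comparison, Itih4 and Itih5, and for 2.24% of all genes.

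Between the 2 mutant groups, which differ in Gata5 alone by their labels, the log2 fold change of Itih4 was -0.38 (SE 0.17, 95% interval -0.74 to -0.02). The groups overlapped, since replicate 4 of the Gata5 nulls (41.0 CPM) was above replicates 1 and 2 of the double heterozygotes (40.5 and 40.7 CPM). The edgeR interval excluded 0, with an unadjusted p of 0.0395, while the exact permutation p was 0.0857. The edgeR adjusted p was 1, with 0.0% of all genes called and 2.73% of genes without overlap. A step of Itih4 between the mutant groups was therefore not clearly separated from the spread between pools. These 3 contrasts share libraries in pairs and are not independent of one another.

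**Figure D1:**
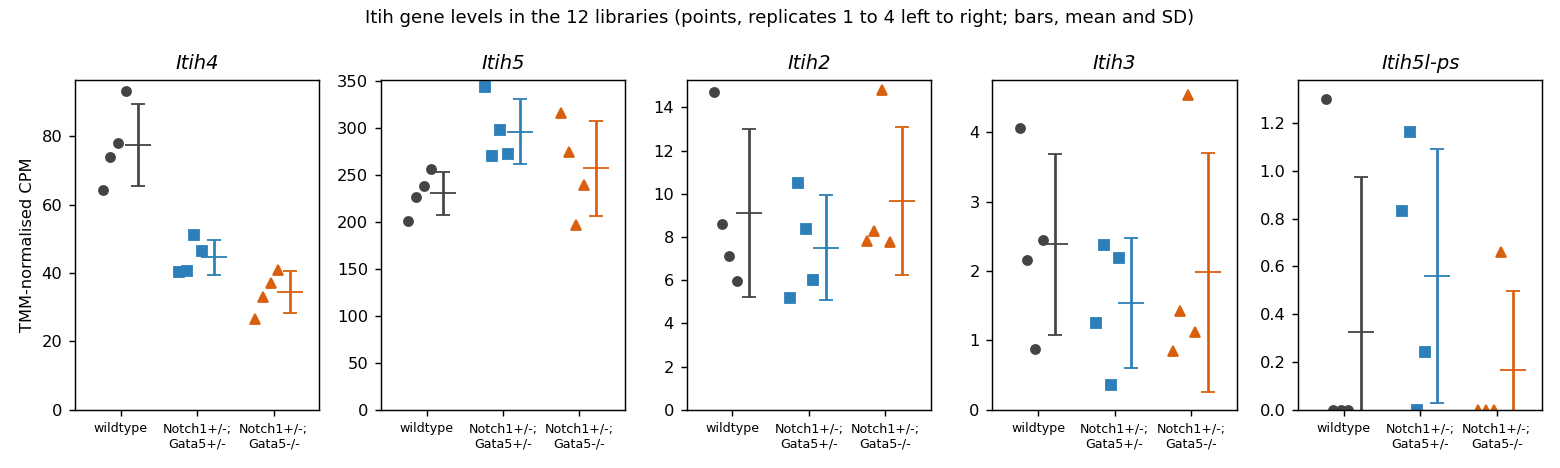
Level of each Itih gene (y axis, TMM-normalised CPM, from 0, with a separate scale per gene) in the 12 libraries by genotype (x axis). Points are libraries, replicates 1 to 4 from left to right, and bars give the mean and SD, cut at 0 for Itih5l-ps. The 4 wildtype points of Itih4, at 64.2 to 93.2 CPM, lie above all 8 mutant points, while those of Itih5 lie below all 4 Notch1+/-;Gata5+/- points.

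Itih5 (ENSMUSG00000025780, chromosome 2) was the most abundant member, and its mean was higher in both mutant groups than in wildtype. Its levels were 201, 226, 238 and 256 CPM in wildtype replicates 1 to 4. In double heterozygotes they were 344, 270, 297 and 272 CPM, all above the wildtype libraries. In Gata5 nulls they were 316, 275, 197 and 240 CPM, spread on both sides of the wildtype range.

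The Itih5 means were 230 ± 22.9 CPM in wildtype, 296 ± 34.4 in double heterozygotes and 257 ± 50.7 in Gata5 nulls (SD, n = 4 each). From wildtype to double heterozygotes the log2 fold change was 0.36 (SE 0.14, 95% interval 0.07 to 0.65), with an exact two-sided permutation p of 0.0286 and an edgeR adjusted p of 1. The log2 fold change was 0.16 (SE 0.14, 95% interval -0.13 to 0.44) from wildtype to Gata5 nulls and -0.20 (SE 0.14) between the mutant groups. The exact permutation p-values of these were 0.4 and 0.286. Replicate 3 of the Gata5 nulls, the library with most genes at 0, had the lowest Itih5 level of all 12.

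Itih2 (ENSMUSG00000037254, chromosome 2), which encodes a bikunin-linked heavy chain, was present at a low level. It measured 14.7, 8.59, 7.14 and 5.96 CPM in wildtype replicates 1 to 4. It measured 5.15, 10.5, 8.37 and 6.02 CPM in double heterozygotes and 7.82, 8.29, 14.8 and 7.77 CPM in Gata5 nulls. The groups overlapped in all 3 comparisons, with log2 fold changes of 0.09 (SE 0.41) from wildtype to Gata5 nulls, -0.28 (SE 0.41) from wildtype to double heterozygotes and 0.36 (SE 0.41) between the mutant groups. The 95% interval of the first ran from -0.77 to 0.94, so a change of Itih2 as large as the one seen in Itih4 lay outside it in this fit. Over 23 other settings that log2 fold change ran from -0.91 to 0.42. Replicate 3 of the Gata5 nulls, at 14.8 CPM, was far above the rest of its group. In double heterozygotes the interval was -1.13 to 0.58, which still contains the -0.79 of Itih4.

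Itih3 (ENSMUSG00000006522, chromosome 14), which lies next to Itih4 and encodes another bikunin-linked chain, had 7 to 78 counts per library. It measured 4.06, 2.16, 0.879 and 2.45 CPM in wildtype and 1.25, 2.38, 0.353 and 2.18 CPM in double heterozygotes. In Gata5 nulls it measured 0.843, 1.43, 4.54 and 1.12 CPM. The groups overlapped in each comparison. Its log2 fold change from wildtype to Gata5 nulls was -0.27 with an SE of 1.08 and a 95% interval from -2.49 to 1.95, which contains the value of Itih4, so a change of that size was not detectable at this depth. The pseudogene Itih5l-ps (chromosome X) was at 0 counts in 7 of the 12 libraries and at 5 to 25 counts in the others. It overlaps 1 annotated gene on the opposite strand, and whether counting used the strand is not given in the sources used here.

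**Figure D2:**
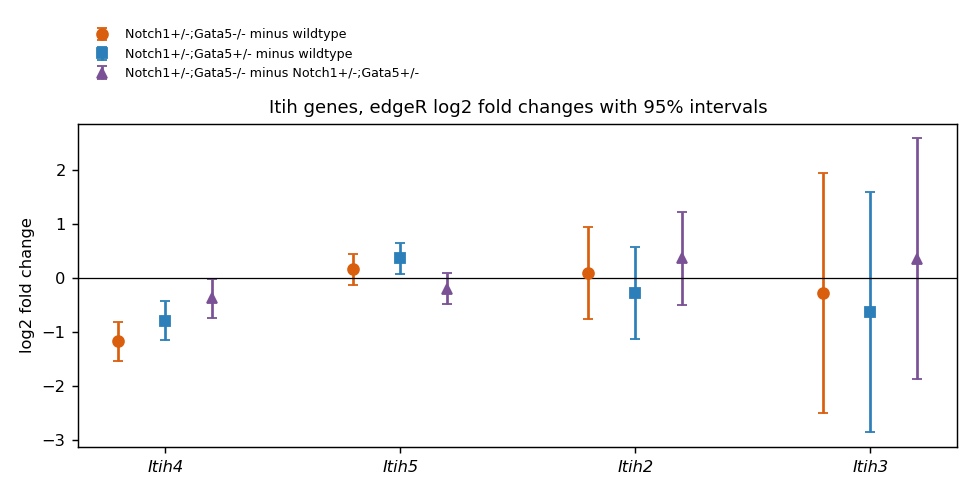
Log2 fold change of each of 4 Itih genes (y axis) in the 3 comparisons of genotypes (colours and symbols), with bars for the 95% interval of the edgeR fit. Both comparisons with wildtype lie below 0 for Itih4, at -1.17 and -0.79, whereas the intervals of Itih2 and Itih3 span 0 in all 3.

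Per kilobase of exon, which allows levels of different genes to be compared, the order was Itih5, Itih4, Itih2 and Itih3 in each of the 12 libraries. In wildtype the means were 29.2 ± 2.89, 21.0 ± 3.27, 2.75 ± 1.18 and 0.656 ± 0.359 CPM per kilobase in that order. The gap between the first pair was narrow there, since the highest Itih4 value was 25.3 and the lowest Itih5 value was 25.5 CPM per kilobase. Within each group the ranges of neighbouring genes in this order did not overlap. By mean log2 CPM over all libraries, Itih5 stood above 97.8% of the genes tested, Itih4 above 81.2%, Itih2 above 47.7% and Itih3 above 26.2%.

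The balance of both abundant members differed between wildtype and mutant libraries. The ratio of Itih5 to Itih4 per kilobase was 1.47, 1.43, 1.42 and 1.28 in wildtype replicates 1 to 4. It was 3.97, 3.09, 2.72 and 2.74 in double heterozygotes and 5.58, 3.88, 2.49 and 2.73 in Gata5 nulls. The ratio was above the wildtype range in all 8 mutant libraries, and both mutant groups overlapped. In Gata5 nulls this follows largely from the choice of Itih4. Double heterozygotes were set against the same 4 wildtype libraries, so their ratios are not independent of that choice either. A ratio within a library does not depend on the scaling between libraries.

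**Figure D3:**
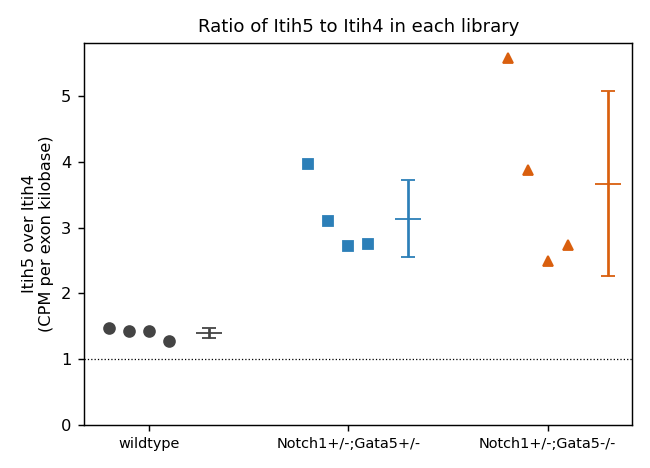
Ratio of Itih5 to Itih4 in CPM per kilobase of exon (y axis, from 0) in each library by genotype (x axis). Points are replicates 1 to 4 from left to right, bars give the mean and SD, and the dotted line marks equal levels. Wildtype libraries lie at 1.28 to 1.47 and mutant libraries at 2.49 to 5.58.

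The members did not vary together across the 12 libraries. The Pearson correlation of log2 CPM was -0.40 between Itih4 and Itih5, -0.12 between Itih4 and Itih2 and 0.16 between Itih4 and Itih3. Itih5 ran against Itih2 (-0.71) and Itih3 (-0.65), also after the group means were removed (-0.76 and -0.63). Itih2 and Itih3 had a correlation of 0.50. Spearman correlations were weaker, at -0.55 for Itih5 with Itih2, -0.61 for Itih5 with Itih3 and 0.38 for Itih2 with Itih3. These values describe 12 libraries that share depth and dissection, and replicate 3 of the Gata5 nulls was the highest of its group for Itih2 and Itih3 and the lowest for Itih5.

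The 6 genes whose levels were most like those of Itih4, of 13775 with a symbol and a mean log2 CPM of at least 1, were Map1b, Cav1, Myh11, Cnn1, Gpd2 and Igsf9b. Their Pearson correlations with Itih4 over the 12 libraries were 0.939, 0.918, 0.910, 0.907, 0.901 and 0.878. After the group means were removed they were 0.900, 0.927, 0.612, 0.748, 0.781 and 0.818 in the same order. Spearman correlations over the 12 libraries were 0.895 (Cav1) to 0.951 (Map1b and Gpd2). Map1b, which encodes a microtubule-associated protein, averaged 659 CPM in wildtype, 557 in double heterozygotes and 481 in Gata5 nulls. Cav1, which encodes a coat protein of caveolae, averaged 416, 333 and 316 CPM. Myh11 and Cnn1 encode the smooth muscle myosin heavy chain and calponin.

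For Itih5 the most alike genes included Col9a3, a chain of collagen IX, with a correlation of 0.904, and Timp3, an inhibitor of metalloproteases, with 0.869. Col9a3 averaged 14.8 CPM in wildtype, 26.9 in double heterozygotes and 24.1 in Gata5 nulls, with an SD of 16.6 in the last group. For Itih2 they were Scube1, Mapk1ip1 and Aasdh, with 0.812 to 0.810. For Itih3 they were Ube2j1, Neu3 and Prx, with 0.892, 0.844 and 0.841. For the sparse counts of Itih5l-ps they were Dpep1, Alox5 and Ncf1, with 0.894 to 0.789. None of the genes named here was shared between members. Like those of Itih4, they were picked as the highest of 13775 correlations over only 12 libraries. How high such picked values reach by chance was not tested, so no shared regulation is read from them.

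Since Myh11 and Cnn1 were among the genes most like Itih4, the whole list of 8 smooth muscle markers is given beside it. All 8 had a negative log2 fold change from wildtype to Gata5 nulls, with a median of -0.75 against -0.03 for all genes tested, and 4 fell at an edgeR adjusted p under 0.05, beside 5 calls (0.0258%) among all 19346 genes. These were Synpo2 (-0.83, adjusted p = 0.00824), Mylk (-0.75, 0.00861), Myh11 (-0.75, 0.0136) and Cnn1 (-0.81, 0.0365). Without wildtype replicate 2 the count was 1, of 2 calls over all genes. It was 2 without replicate 1 of the Gata5 nulls, of 3 calls, and 2 without their replicate 2, of 4 calls. Without their replicate 4 it was 7, of 21 calls, and without wildtype replicate 2 and replicate 3 of the Gata5 nulls together 0, of 2 calls. These marker counts were added after seeing the data. With those last 2 libraries left out, Itih4 had a log2 fold change of -1.22. From wildtype to double heterozygotes the median was -0.33 and none was called. The markers summed to 5324 to 7169 CPM in wildtype, 4871 to 5334 in double heterozygotes and 3560 to 4789 in Gata5 nulls, and none of the 8 was at 0.

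As a score, the mean log2 CPM of the 8 markers was 8.77 ± 0.19 in wildtype, 8.44 ± 0.07 in double heterozygotes and 7.93 ± 0.28 in Gata5 nulls (SD, n = 4 each). Itih4 had a Pearson correlation of 0.859 with it over the 12 libraries and of 0.410 after the group means were removed, and Itih5 one of -0.11. On the log2 CPM scale, Itih4 minus the score was -2.51 ± 0.20 in wildtype, -2.97 ± 0.18 in double heterozygotes and -2.84 ± 0.29 in Gata5 nulls. Double heterozygotes spanned -3.145 to -2.713 and Gata5 nulls -3.14 to -2.45, and both overlapped the wildtype range of -2.74 to -2.33. With the score as a covariate, a setting chosen after seeing the data, the log2 fold change of Itih4 from wildtype to Gata5 nulls was -0.79. Score and genotype differ together between these groups, so their parts in the difference of Itih4 cannot be told apart.

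**Figure D4:**
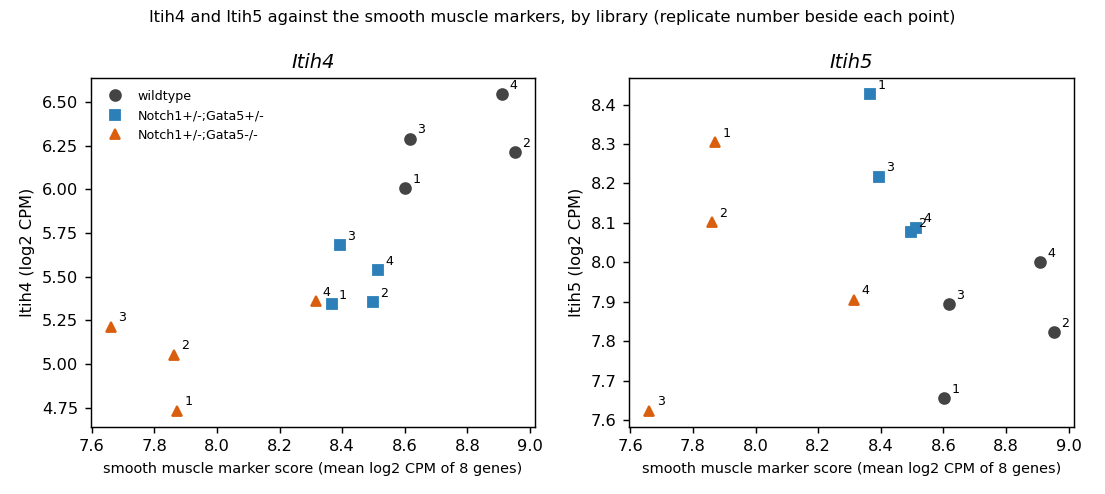
Level of Itih4 (left, y axis, log2 CPM) and of Itih5 (right) against the smooth muscle marker score (x axis, mean log2 CPM of 8 genes) in the 12 libraries, with the replicate number beside each point. Itih4 was high in the wildtype libraries, which had the highest scores, and low in Notch1+/-;Gata5-/-, while Itih5 showed no such order, with correlations of 0.859 and -0.11.

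Other tissues that could bring Itih RNA into a dissected valve gave no called marker. Over all genes, 0.0258% were called from wildtype to Gata5 nulls and 0.0% in the other comparisons. At such shares a short list without a call says little. Of 8 hepatocyte markers only Ahsg, a liver plasma protein gene, was measured, at 8.88 to 29.7 CPM with overlapping groups and a log2 fold change of -0.09 (SE 0.36) from wildtype to Gata5 nulls. The other 7, albumin and transthyretin among them, were not analysed here. No marker was called in the lists for adipocytes (5 measured, summing to 272 to 444 CPM), mesothelium (6, 16.1 to 108 CPM), macrophages (6, 136 to 192 CPM), endothelium (6, 482 to 791 CPM) or red cells (4, 27.1 to 83.2 CPM). From wildtype to Gata5 nulls, 4 of 5 adipocyte markers had negative log2 fold changes, with a median of -1.91 against -0.03 for all genes. The more abundant markers were near 0, with -0.01 (SE 0.27) for Plin4 and 0.12 (SE 0.18) for Fabp4. The low values came from the less abundant Plin1, Cidec and Adipoq.

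Among these, the lipid droplet gene Plin1 had -1.91 (SE 1.12), with 7.03 ± 9.63 CPM in wildtype and 1.86 ± 2.02 in Gata5 nulls. Cidec, another lipid droplet gene, had 1.45 ± 2.17 and 0.124 ± 0.221 CPM. The adipokine gene Adipoq had 1.32 ± 0.46 and 0.145 ± 0.289 CPM, and its libraries did not overlap, as was so for 2.93% of all genes. It was named after its values were seen. The summed adipocyte markers, which are mostly Fabp4 (284 CPM on average in wildtype), had a median of 350.5 CPM in wildtype and 372.9 in Gata5 nulls. Of the mesothelial markers, 5 of 6 had negative log2 fold changes, with a median of -0.40, and the keratin gene Krt19 had -1.52 (SE 0.78) and the mesothelin gene Msln -0.52 (SE 0.43). Of the endothelial markers, 4 of 6 had positive ones, and Nfatc1, a transcription factor gene of valve endocardium, had 24.5 ± 4.71 CPM in wildtype and 42.6 ± 9.94 in Gata5 nulls, with an unadjusted p of 0.00127 and an adjusted p of 0.525 in edgeR. The part of these markers in the difference of Itih4 was not tested.

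The sums of 4 Y-linked genes were 95.8 to 198 CPM in wildtype, 90.1 to 256 in double heterozygotes and 67.2 to 192 in Gata5 nulls, which overlap. All 4 had a negative log2 fold change from wildtype to Gata5 nulls, with a median of -0.51. With the Y-linked genes entered as a covariate, the log2 fold change of Itih4 from wildtype to Gata5 nulls was -1.08, and 0 genes in place of 5 were called over the whole table.

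In both comparisons with wildtype, the 9 reported genes near Itih4, outside the family, had log2 fold changes smaller in size than its own. Nothing is read from this, since Itih4 was chosen by its difference from the same wildtype libraries. In the annotated order on chromosome 14, Prkcd, Sfmbt1, Tmem110 and Mustn1 precede Itih4, Itih3 and Itih1, and Nek4, Spcs1, Glt8d1, Gnl3 and Pbrm1 follow. None of these 9 genes was called in any of the 3 comparisons, where at most 0.0258% of all genes were. From wildtype to Gata5 nulls their log2 fold changes ran from -0.36 (Tmem110) to 0.05 (Glt8d1), with a median of -0.10, and from wildtype to double heterozygotes from -0.28 to 0.15. Mustn1, the nearest upstream gene of those tested, had a log2 fold change of -0.07 (SE 0.38). Apart from Itih1, genes that were not tested were left out of the annotated order above. The 10 tested neighbours of Itih2 and Itih5 on chromosome 2, Gata3 among them, also had no call, with log2 fold changes of -2.02 to 1.39 that were widest in genes of few counts.

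**Figure D5:**
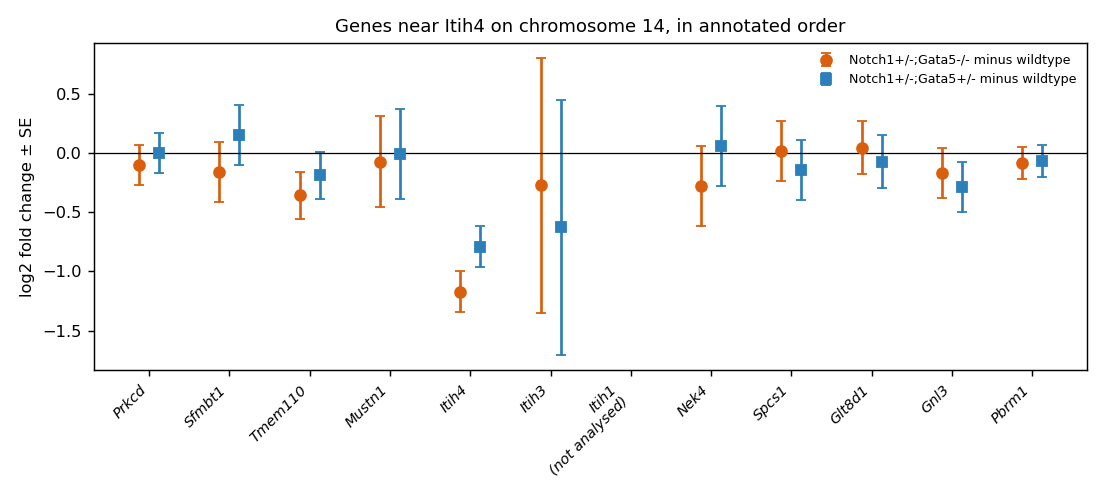
Log2 fold change with SE (y axis) of Itih4 and genes near it in annotated order on chromosome 14 (x axis, gene order and not distance), for Notch1+/-;Gata5-/- and Notch1+/-;Gata5+/- against wildtype. Itih4, at -1.17 and -0.79, stands below the 9 genes outside the family, which lie between -0.36 and 0.15, and the bars of Itih3 span both. Itih4 was chosen by its difference from wildtype, so nothing is read from its place.

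Of the genes that act with the heavy chains, none was called in any comparison, where at most 0.0258% of all genes were called. With so few calls over all genes, little can be read from a short list without one. Bikunin itself, Ambp, was not analysed here. Tnfaip6 averaged 3.69 ± 0.906 CPM in wildtype, 4.36 ± 0.352 in double heterozygotes and 4.18 ± 3.83 in Gata5 nulls. Ptx3, which encodes a pentraxin that binds heavy chains in the hyaluronan matrix, averaged 20.4 ± 5.26, 23.4 ± 7.10 and 25.7 ± 9.54 CPM in the same order, with a log2 fold change of 0.33 (SE 0.29) from wildtype to Gata5 nulls.

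The genes of hyaluronan itself were measured for synthesis (4 of 4 listed genes), binding (11 of 14) and breakdown (5 of 6), and 0 were called. The share called over all genes was at most 0.0258%. All 4 synthesis genes had a negative log2 fold change from wildtype to Gata5 nulls, with a median of -0.29 against -0.03 for all genes. Has2 (-0.04, SE 0.46) and Ugdh (-0.05, SE 0.18) lay near the value for all genes. Has3 averaged 21.6 ± 5.84 CPM in wildtype, 23.0 ± 6.24 in double heterozygotes and 14.9 ± 2.85 in Gata5 nulls, and Has1 12.9 ± 5.50, 12.9 ± 2.61 and 8.46 ± 1.35 CPM. Both encode hyaluronan synthases. Unadjusted p-values of the edgeR fit from wildtype to Gata5 nulls were 0.0569 and 0.0933.

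Among hyaluronan binders, 6 had positive and 5 negative log2 fold changes in that comparison, with a median of 0.22. The proteoglycan gene Acan had 187 ± 59.7 CPM in wildtype and 255 ± 46.2 in Gata5 nulls, a log2 fold change of 0.44 (SE 0.19). Hapln1, which encodes a link protein that fixes proteoglycans to hyaluronan, had 21.2 ± 4.92 and 30.7 ± 13.3 CPM. Of the breakdown genes, Hyal1, a hyaluronidase, had 47.0 ± 9.0 CPM in wildtype, 44.9 ± 4.95 in double heterozygotes and 34.6 ± 3.96 in Gata5 nulls. Its wildtype and Gata5-null libraries did not overlap, as was so for 2.93% of all genes, and its edgeR adjusted p was 0.841. Cemip, which encodes a hyaluronan-binding protein of hyaluronan breakdown, had a log2 fold change of -0.33 (SE 0.26). Its wildtype and Gata5-null libraries did not overlap either, which makes 2 of the 5 breakdown genes.

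Other genes that share domains with the family, with the proteins they bind or with the matrix around them also gave no call. At most 0.0258% of all genes were called in any comparison. Of 10 Kunitz domain genes, 3 had positive and 7 negative log2 fold changes from wildtype to Gata5 nulls (median -0.09). Spint2, a membrane-bound protease inhibitor, had -0.61 (SE 0.34) and App, the amyloid precursor, -0.14 (SE 0.12). Of 3 other genes with a vault inter-alpha-trypsin domain, Parp4 had -0.14 (SE 0.27) and Vwa5b2, at 0 to 55 counts, -1.59 (SE 1.98). The 11 matrix genes with von Willebrand A domains had a median of -0.25, with 3 positive and 8 negative. Of these, Col14a1, a collagen that coats fibrils, had -0.42 (SE 0.12, edgeR adjusted p = 0.63) and Col12a1, a related collagen, 0.43 (SE 0.16, adjusted p = 0.839).

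In human plasma ITIH4 is an acute phase protein, so genes of that response were listed beside it. Of 17 acute phase genes 4 were measured, with 1 positive and 3 negative log2 fold changes from wildtype to Gata5 nulls and a median of -0.04. Serpina3n, a secreted serine protease inhibitor, averaged 3.86 ± 1.45 CPM in wildtype, 6.08 ± 2.12 in double heterozygotes and 6.64 ± 3.78 in Gata5 nulls. Hp, which encodes haptoglobin, had 0 to 33 counts per library. Of 11 interleukin 6 signalling genes, 10 were tested, with a median of 0.08 and 0 called, beside at most 0.0258% of all genes called. Il6st, the shared receptor chain, had a log2 fold change of -0.12 (SE 0.11) and the kinase gene Jak2 0.20 (SE 0.19). Among 3 genes of proteases known to cut human ITIH4, Masp1, of the lectin pathway of complement, was measured, at 7.27 ± 2.73, 10.1 ± 2.13 and 12.6 ± 4.87 CPM in wildtype, double heterozygotes and Gata5 nulls, with a log2 fold change of 0.79 (SE 0.39, unadjusted p = 0.0531 in edgeR) from wildtype to Gata5 nulls.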

How the data were processed

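Counts per gene for 12 libraries were deposited as raw whole numbers. Per the submitters' processing notes, Trim Galore, STAR 2.7.10b, DESeq2 1.34.0 and build GRCm39 were used, while the sources used here name no counter, annotation or strand setting. Every gene in the table totalled at least 33 counts. The authors also deposited a table with a mean normalised signal, a log2 fold change, its SE and a Wald statistic (both a score here) and a p-value before and after adjustment. It names no comparison, and its log2 values matched a DESeq2 refit of Notch1+/-;Gata5-/- (Gata5 nulls) against wildtype to within 0.000166.

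Counts were fitted in R 4.3.3 with edgeR 4.0.16, using TMM scaling, filterByExpr (19346 of 20620 genes kept), a robust quasi-likelihood model of all 12 libraries with 1 term per group and Benjamini-Hochberg adjustment over all genes tested. A call is an adjusted p under 0.05. Intervals are 95% intervals of that fit. Single genes were also tested by exact permutation, two-sided, over all 35 divisions of 8 libraries, with 14 such tests for the members. The method was tested on simulated data. Alternatives were DESeq2 1.42.0, limma 3.58.1 (voom), RLE and upper quartile scaling, no filter, a stricter filter (1 CPM in 4 libraries), only the 8 libraries compared, a replicate block, a Y-linked covariate, each library left out and wildtype 2 with Gata5-null 3 left out. A smooth muscle covariate was added after seeing the data.

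Symbols came from the deposited table for 13959 genes and from a GENCODE annotation of the older build GRCm38 for 6077, and 584 had none. That annotation also gave exon lengths and gene order. Depth was 13866604 to 25059653 counts, and a count of 0 allows up to 3 counts, or 0.120 to 0.216 CPM, for counting error only. The replicate numbers did not pair the libraries (correlations of -0.03 to 0.10 between same-numbered libraries).

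The members and lists were chosen with earlier results of these data known. Genes named are all Itih genes, both measured genes of the bikunin list, from each other list the 2 with the smallest unadjusted p in Gata5 nulls against wildtype and any called, the 6 most correlated with Itih4 and 3 with each other member, and chromosomal neighbours. Some genes that the rule names are not reported here. Names outside this rule are given for position or identity, or to show the spread within a list. Figures were drawn with matplotlib 3.10.9.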

Additional observations from a re-analysis of the deposited data

Results flagged for a closer look

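Among 21 sets of 4 libraries examined, 4 had a library far from the others, with a gap to the nearest library too wide for the range of the group by the 95% value of Dixon, where chance gives about 1 in 20. Replicate 3 of the Gata5 nulls was high for Itih2, at 14.8 CPM against 7.77 to 8.29 in the others. The same library was high for Itih3, at 4.54 CPM against 0.843 to 1.43. It is also the library with 6000 genes at 0. Without it, the log2 fold change from wildtype to Gata5 nulls was -0.19 for Itih2 and -1.07 for Itih3. Itih5l-ps was at 1.30 CPM in wildtype replicate 1 and at 0.661 CPM in replicate 4 of the Gata5 nulls, with 0 counts in the other 3 libraries of each group. With 3 libraries at 0, any count in the last is flagged, so the rate of 1 in 20 does not hold for such sets.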

How the results depend on the processing

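Itih4 kept its direction in all 23 other settings, with log2 fold changes of -1.27 to -0.79 from wildtype to Gata5 nulls, -0.87 to -0.64 from wildtype to double heterozygotes and -0.48 to -0.15 between the mutant groups. The first comparison chose the family, so nothing is read from how often Itih4 passed its threshold. The count of Itih genes past it was 0 with the 8 libraries of both groups only (Itih4 at -1.17), a Y-linked covariate (-1.08) or a smooth muscle covariate (-0.79). In the second, Itih4 was called with DESeq2 alone (-0.80, 0.0489), as 1 Itih gene. The cause was not tested. Itih5 also kept its direction in all 3 comparisons.

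Over all genes, the 5 calls in the first comparison became 49 with DESeq2, 0 in each of the 3 settings just named, 2 without wildtype 2 and Gata5-null 3, and 2 to 21 with 1 library left out (2 without wildtype 2, 3 without Gata5-null 1, 21 without Gata5-null 4). The 0 calls in the second became 8 with DESeq2, and 242 genes had an unadjusted p under 0.05 there. The 0 calls between mutant groups became 13 with DESeq2, 2 without both libraries and 0 to 1 with 1 left out, beside 616 unadjusted. With the replicate block, Itih4 had -1.18 in the first comparison and 7 genes were called, and no Itih call changed.

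Low members changed sign. In the first comparison Itih2 had -0.22 with the Y-linked covariate, -0.91 with the smooth muscle covariate, -0.21 without both libraries and -0.19 to 0.42 with 1 left out. Itih3 had -1.07 to 0.11 with 1 left out. Itih5l-ps had 0.11 with the replicate block, 1.45 with the smooth muscle covariate and -5.66 to 4.78 with 1 left out. In the second, Itih2 had -0.48 to 0.057 with 1 left out. Between mutant groups, Itih2 had -0.031 and -0.28 with the Y-linked and smooth muscle covariates, and Itih3 had -0.36, -0.62, -0.44 without both libraries and -0.44 to 0.64 with 1 left out. The 4 smooth muscle markers called in the first comparison numbered 0 with the 8 libraries only and with either covariate and 7 with DESeq2.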
